A study of Sus scrofa with 5 samples.

Results

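The E60-only transcripts of the miniature pig molar germ were assembled transcripts listed at 1 FPKM or more at embryonic day 60 (E60) and at exactly 0 FPKM at both E50 and E70. FPKM counts sequenced fragments relative to exon length and to the mapped total of the library. The transcripts were chosen by these measured values, so their presence at E60 and their 0 at the other stages are the selection itself and not a result. The rule kept 12949 of 45614 transcripts (28.4%), and these lay at 8115 of 18696 loci (43.4%). A locus here is an interval of a scaffold of the Wuzhishan miniature pig genome (WZSP) that holds 1 or more assembled transcripts, and none of these intervals overlap.

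RNA was taken from additional molar germs of the mandible, with the dental lamina attached, in wild type miniature pigs at embryonic days 50, 60 and 70. No treatment was given, and the germs of a stage were pooled from embryos of the same litter, so litter and stage cannot be told apart. The labels list 1 sample for each of E50 and E60 and 3 for E70. The deposited table gives 1 FPKM value per transcript and stage, and that of E70 is the authors' value for the group. With 1 value per stage there was no spread between replicates, and all values below are a description without a test.

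Molars form as the epithelium of the dental lamina folds into underlying mesenchyme and passes through bud, cap and bell stages. The additional molars behind the milk teeth arise in sequence from the posterior end of the lamina, so that a later germ starts while an earlier one is already being shaped. Many genes give several transcripts through alternative starts, splicing and ends, and an assembler such as Cufflinks divides the reads of a locus among the transcripts it has built there. The table pairs no transcript with a gene symbol, so the tissue was not checked against marker genes. In pooled tissue, fewer cells of a type and less RNA per cell cannot be told apart. The table holds no read counts, so how many reads lie behind a value cannot be read from it, and a 0 is given as listed at 0.

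The E60-only transcripts were a large part of what the table lists at E60. They made up 41.7% of the 31033 transcripts at 1 FPKM or more at E60. The same rule applied to E50 kept 564 transcripts, or 4.6% of the 12259 at 1 FPKM or more at that stage, and applied to E70 it kept 432, or 3.83% of 11285. The list at E60 was therefore 23.0 times as long as the list at E50 and 30.0 times as long as that at E70. Of the values above 0 at E60, 17.3% were under 1 FPKM, against 40.9% at E50 and 41.8% at E70, so small values were less frequent at E60. The 5th percentile of the values above 0 was 0.189 FPKM at E60, 0.0244 at E50 and 0.0247 at E70. Above 0 at all were 37539 transcripts at E60, 20727 at E50 and 19392 at E70. The study lists a lower share of reads mapped to the WZSP genome at E50 and E70 than at E60, most clearly in the reads marked R1. It also lists the largest number of assembled transcripts at E60. Whether these differences between the stages bear on the number of E60-only transcripts was not tested.

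Other transcripts at 1 FPKM or more at E60 were listed at 0 at only one of the neighbouring stages or at neither. Of these, 3939 were at 0 at E50 and above 0 at E70, 4560 were above 0 at E50 and at 0 at E70, and 9585 were above 0 at both. Among these 18084 transcripts, 1618 failed the rule although both their E50 and E70 values were under 0.1 FPKM.

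Most E60-only transcripts were of low to middle abundance. Their median E60 value was 6.12 FPKM, with quartiles of 2.72 and 16.5, a 90th percentile of 48.3 and a 99th percentile of 582. The remaining 18084 transcripts at 1 FPKM or more at E60 had a median of 8.60, quartiles of 3.30 and 26.4, and 90th and 99th percentiles of 81.6 and 1294. Both distributions overlapped widely, with the E60-only transcripts lower at each of these points and most so at the upper end. In total, 2098 E60-only transcripts lay from 1 to 2 FPKM, 3607 from 2 to 5, 2510 from 5 to 10, 4100 from 10 to 100, 557 from 100 to 1000 and 77 at 1000 or more. They formed 47.5% of all transcripts from 1 to 2 FPKM at E60, 37.5% of those from 10 to 100 and 25.2% of those at 1000 or more, so their share was smaller among the more abundant transcripts. By contrast, the few transcripts found only at E50 had a median of 47.3 FPKM at E50, and those found only at E70 a median of 256 at E70.

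A few E60-only transcripts held much of the summed signal. They added up to 995929 FPKM, or 31.9% of the sum of 3117182 over all transcripts at E60. The highest of them alone gave 35.7% of their sum, and without it the E60-only transcripts held 23.2% of the remaining E60 sum. The minimum of 1 FPKM cut through a continuous range of values. Just inside it were TCONS_00479472 at 1.0005 FPKM, TCONS_00226939 at 1.0008 and TCONS_00411884 at 1.0009, and just outside were TCONS_01072366 at 0.9999, TCONS_00669779 at 0.9998 and TCONS_00435212 at 0.998. There were 237 E60-only transcripts between 1 and 1.1 FPKM and 226 transcripts between 0.9 and 1 FPKM that were left out for their E60 value alone, among 3078 left out for it in all.

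The transcripts differed in what else their locus held. At 8942 E60-only transcripts (69.1%, Wilson 95% confidence interval 68.3% to 69.8%) another transcript of the same locus was above 0 at E50 or E70. In these cases the locus itself was not restricted to E60, only the transcript was. For 6884 of them another transcript was above 0 at both stages, for 1213 at E50 only and for 845 at E70 only. The other 4007 (30.9%, 30.2% to 31.7%) lay at 2632 loci that were listed at 0 in full at E50 and E70, called silent loci here. Of these, 1283 were the single transcript of their locus and 2724 shared 1349 loci with further transcripts at 0 at both stages. These intervals take in counting error alone, and they treat transcripts that share a locus as if they were independent.

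Among other transcripts at 1 FPKM or more at E60, 79.5% had another transcript of their locus above 0 at E50 or E70, and among all transcripts 68.8%. The other transcripts at E60 are above 0 at E50 or E70 by definition, so the groups differ in the values used for the selection, and the gap between them is a description only. At loci of 2 transcripts the shares were 41.7% of the E60-only and 68.5% of the other transcripts at 1 FPKM or more, at loci of 3 they were 70.4% and 86.0%, at loci of 4 they were 81.0% and 93.7%, and at loci of 7 they were 96.7% and 99.3%. Wholly silent loci were shorter, with a median span of 11848 bp over the E60-only transcripts, introns included, against 42127 bp where another transcript was above 0 at E50 or E70. An E60-only transcript that is single at its locus is at a silent locus by definition, and these had a median span of 5177 bp. At loci of 2 transcripts 58.3% of the E60-only lay at silent loci, and at loci of 8 or more 0.262%. These spans were not compared at equal numbers of transcripts. The median E60 values were close, at 5.59 FPKM in the silent loci and 6.31 in the others. The sums were not, because the highest E60-only transcripts lay in silent loci, which held 72.9% of the summed E60-only FPKM. The single highest transcript gave 355413 of the 726375 FPKM in silent loci, and the other loci summed to 269555 FPKM.

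Summed over all their transcripts, 2649 loci were at 1 FPKM or more at E60 and at 0 at E50 and E70. The mirrored counts were 167 loci for E50 alone and 55 for E70 alone. At 1934 loci every transcript was E60-only, and 651 of these loci held 2 or more.

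Over all transcripts, listed at E60 or not, the share that was E60-only differed with the number of transcripts of a locus. At loci of a single transcript 15.7% of transcripts were E60-only, at loci of 2 transcripts 29.3%, at loci of 5 transcripts 33.2% and at loci of 8 or more 28.0%. Single-transcript loci were thus the ones with the lowest share of all their transcripts. Among transcripts at 1 FPKM or more at E60 they were not set apart. There, 1283 E60-only transcripts stood beside 1867 others at loci of 1 transcript, and 2129 beside 3226 at loci of 2. At loci of 5 these counts were 1702 and 2114, and at loci of 8 or more 1147 and 1776. The E60-only transcripts at single-transcript loci were 9.91% of all E60-only transcripts. This was close to the 10.3% among the other transcripts at 1 FPKM or more at E60 and below the 17.9% among all transcripts. Of the loci with an E60-only transcript, 4948 held 1, 2042 held 2, 749 held 3 and 113 held 5 or more. Where a locus held 2 or more, the highest had a median of 2.08 times the E60 value of the next, and in 52.2% of these 3167 loci it was over 2 times the next.

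Within loci of 2 or more transcripts, an E60-only transcript was usually one of several forms present at E60. Of 11666 such transcripts, 3130 (26.8%) held over 50% of the E60 FPKM of their locus and 4200 (36.0%) were its highest transcript at E60. Their median part of the locus sum was 27.7%. Other transcripts at 1 FPKM or more at E60 gave 29.4% over 50% of the locus sum, 37.6% highest and a median part of 28.1%. By this measure the E60-only transcripts were much like other transcripts present at E60.

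The 15169 companions, meaning the transcripts that were not E60-only at loci with an E60-only transcript, were spread over 6181 loci. Of these, 68.0% were above 0 at E50, 79.7% at E60 and 64.5% at E70, with median values of 0.544, 2.26 and 0.328 FPKM. At loci of 2 or more transcripts without an E60-only transcript the medians were 0.505, 3.70 and 0.326 FPKM at E50, E60 and E70. The companions were thus, like these, highest in the median at E60 in the deposited values. They were present at all stages in 5652 cases (37.3%), at E50 and E60 in 2790, at E60 and E70 in 2271, at E50 and E70 but not E60 in 1570 (10.4%), at E60 under 1 FPKM in 1375, at E50 in 297, at E70 in 294 and at no stage in 920. At loci of 2 or more transcripts without an E60-only transcript, 39.3% were above 0 at all stages and 8.50% at E50 and E70 but not E60.

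Changes of companions were counted from a 2-fold difference on the log2(FPKM + 1) scale, which understates the changes of low transcripts. At E60, 6175 companions (40.7%) were higher than at E50 and 3485 (23.0%) were lower, whereas over all 45614 transcripts the share that was higher came to 56% and the share lower to 14.1%. Against E70, 6228 companions (41.1%) were higher at E60 and 3680 (24.3%) lower, with 56.1% and 14.3% over all transcripts. Between E50 and E70, which leave E60 out, 2917 companions (19.2%) were higher at E70 and 2336 (15.4%) were lower, with 11.8% and 10.7% over all transcripts, in which the E60-only ones count as unchanged. At loci of 2 or more transcripts without an E60-only transcript these shares were 19.6% and 16.3%, about those of the companions. Companions are what is left of a locus once its E60-only transcripts are taken out, so that part of the gap to all transcripts is set by the selection. The transcripts at those loci without an E60-only transcript gave 47.8% higher and 21.0% lower at E60 than at E50. The comparisons with E50 and with E70 share the E60 value.

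The order of higher and lower companions depended on the scale. Over all transcripts the median change from E50 to E60 was 1.38 on the log2 scale, and it was 0.54 after each stage was scaled to the same median over the 11301 transcripts above 0 at all stages. After this scaling 24.9% of companions were higher and 29.1% lower at E60 than at E50, and 25.2% were higher and 32.0% lower than at E70, so the direction in the deposited values turned. Over all transcripts the scaled shares were 39.9% higher and 18.2% lower than at E50, and 39.5% and 19.3% against E70. On the deposited scale the rule itself makes each E60-only transcript 2-fold higher at E60, so nothing is read from that.

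At some loci with an E60-only transcript, a form present on either side of E60 was listed at 0 there. At 1187 loci with 2076 E60-only transcripts, a companion was at 1 FPKM or more at E50 and E70 and listed at 0 at E60. There were 1473 such companions, 9.71% of all companions. At loci of 2 or more transcripts they were 64.0% of the 2301 transcripts with this pattern, against 58.8% for all 25780 transcripts other than the E60-only ones at such loci. Over loci of any size, transcripts with this pattern lay at loci of 5.12 transcripts in the mean, against 3.89 for all transcripts. The shares were not compared at equal numbers of transcripts. Of the 1187 loci, 1087 held a further companion above 0 at E60, so the counts do not show an exchange of 1 form for another.

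The E60-only transcripts made up a large part of the E60 sum of their loci. At the 5483 loci where another transcript was above 0 at E50 or E70, they gave a median of 49.7% of the locus sum at E60, with quartiles of 25.8% and 77.6%. At 206 of these loci (3.76%) they were all that was listed at E60. The locus sum was 2-fold higher at E60 than at E50 at 3277 of the 5483 loci (59.8%) and lower at 1406 (25.6%), with 48.9% and 17.1% over all loci of the table. When the E60-only transcripts were left out of the sum, 43.4% of the 5483 loci were higher and 34.2% lower. Against E70 the sum was higher at E60 at 58.4% and lower at 29.3%, with 49% and 17.4% over all loci, and without the E60-only transcripts 44.2% were higher and 36.7% lower. The median log2 change of the locus sum from E50 to E60 was 1.90 with the E60-only transcripts and 0.50 without them, and 0.89 over all loci. After median scaling the sums with the E60-only transcripts were higher than at E50 at 41.7% of the loci and lower at 37.8%, while without them the order turned, to 25.4% higher and 45.8% lower. The scaled sums over all loci were higher at 35.1% and lower at 24.9%. The E60-only transcripts were chosen for a rise at E60, so the sums with them are a description only.

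Loci with more abundant companions also held more E60-only signal. Where the summed companions were under 1 FPKM at both E50 and E70, the E60-only transcripts of a locus added up to a median of 7.75 FPKM (1176 loci). Where the higher of both sums was from 10 to 100 FPKM the median was 13.8 (989 loci), and at 1000 FPKM or more it was 21.1 (870 loci). The part of the E60 locus sum that was E60-only moved the other way, from a median of 61.8% to 32.2%. Across the 5483 loci, which share the same libraries and are not replicates, Spearman's rho of the E60-only sum was 0.193 with the companions at E50, 0.334 with those at E60 and 0.218 with those at E70. Both sums run over the transcripts of a locus, and loci were not compared at equal numbers of transcripts.

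The most abundant transcript of the whole table at E60 was itself E60-only. TCONS_00470157 (scaffold 2642, 324668 to 340207) was listed at 355413 FPKM at E60. It is 1 of 4 transcripts of its locus, all E60-only, and the next of them was TCONS_00470160 at 711 FPKM, followed by TCONS_00470159 at 130 and TCONS_00469962 at 23.5. The locus was therefore listed at 0 in full at E50 and E70, and 99.8% of its E60 sum came from 1 transcript.

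Of the 10 highest E60-only transcripts, 8 were the single transcript of a locus, and 5 of those loci spanned under 1000 bp. TCONS_00508029 (scaffold 288, 3987066 to 3989925) was at 58011 FPKM and ranked 5 among all transcripts at E60. TCONS_01096073 (scaffold 8196, 109859 to 110786) was at 32334 FPKM in a locus of 928 bp. TCONS_00276534 lay at the edge of its scaffold (scaffold 18234, 2 to 504) at 26851 FPKM. A value per kilobase is less certain for a short transcript, in which few fragments can be placed. TCONS_00233934 (scaffold 1618, 83641 to 84103) was at 22387 FPKM, and its locus of 463 bp was the shortest of these. TCONS_00017965 (scaffold 24055, 1913 to 3108) was at 21237 FPKM, and TCONS_00368700 (scaffold 2188, 27578 to 35150) was at 8422 FPKM. TCONS_00231262 (scaffold 161, 1954469 to 1955196) at 8380 FPKM and TCONS_00742310 (scaffold 421, 4907722 to 4908404) at 6247 FPKM also filled loci of under 1000 bp. The ninth, TCONS_00408546 (scaffold 238, 10898492 to 11065902), differed in being 1 of 4 transcripts of a long locus, at 6970 FPKM. Its companions summed to 1.34 FPKM at E50, 45.9 FPKM at E60 and 0.410 FPKM at E70, and the table lists its E60 value as 0 in the row of another comparison.

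Over all loci, short span went with a high E60 value. The 40 E60-only transcripts at loci of up to 500 bp had a median of 140 FPKM, the 119 at loci over 500 and up to 1000 bp had 13.9, and the 1309 at loci over 1000 and up to 5000 bp had 7.54. Medians fell further to 6.59, 6.13 and 4.99 FPKM in the classes up to 20000 bp, up to 100000 bp and above. The other transcripts at 1 FPKM or more at E60 gave medians of 140, 22.0, 12.7, 12.1, 8.25 and 5.95 FPKM in the same classes, so a fall of the median with span was also seen there. Their medians up to 500 bp and up to 1000 bp rest on only 11 and 83 transcripts. Loci with an E60-only transcript had a median span of 26898 bp and other loci one of 13282 bp. These sets also differ in transcripts per locus, as 15.7% of loci of 1 transcript and 64.9% of loci of 2 or more held one. Spans were not compared at equal numbers of transcripts.

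Among single-transcript loci of at least 1000 bp, the 5 highest were TCONS_00508029, TCONS_00017965 and TCONS_00368700, already given, TCONS_00177751 (scaffold 14, 1791657 to 1798894) at 5685 FPKM and TCONS_00253425 (scaffold 16851, 871 to 5838) at 4015 FPKM. Each is the single form of its locus in the deposited table, and forms that the assembly may have held beyond the table were not analysed here. As a class, the 1283 single-transcript loci had a median of 6.61 FPKM with quartiles of 2.53 and 26.6.

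Silent loci of 2 or more transcripts were led by TCONS_00470157. The next was TCONS_01018326 (scaffold 696, 1230044 to 1252217) at 5536 FPKM, at a locus where all 6 transcripts were E60-only. Its neighbours in the locus were TCONS_01018327 at 1498 FPKM and 4 forms between 13.4 and 55.9 FPKM. TCONS_00089511 (scaffold 114, 7301674 to 7332321) was at 3145 FPKM beside TCONS_00086773 at 319. TCONS_00350189 (scaffold 211, 5682881 to 5808698) was at 2570 FPKM and held 99.5% of the E60 sum of 4 forms, the others lying between 1.61 and 6.16 FPKM. TCONS_00576807 (scaffold 32, 1005836 to 1007680) was at 2181 FPKM beside TCONS_00577247 at 1361, the most even split of these loci. In each of these 5 loci every transcript was E60-only.

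A different arrangement was seen where a companion was at 1 FPKM or more at both E50 and E70. TCONS_00293430 (scaffold 188, 11645618 to 11657272) was at 3204 FPKM at E60, and its companion TCONS_00293010 was at 3106, 553 and 12296 FPKM at E50, E60 and E70. Here the most abundant form at E60 was not the form listed at E50 and E70. TCONS_00653259 (scaffold 368, 1462482 to 1496789) was at 3443 FPKM and was 1 of 5 E60-only forms, while the companion TCONS_00653368 was at 383 FPKM at E50, 21.7 FPKM at E60 and 177 FPKM at E70. TCONS_00085412 (scaffold 1132, 766420 to 1125620) was at 3842 FPKM, and its companion TCONS_00086181 was at 106, 0 and 163 FPKM at E50, E60 and E70. Both TCONS_00653259 and TCONS_00085412 are listed at 0 at E60 in the row of another comparison. TCONS_00281480 (scaffold 1832, 367156 to 385497) was at 4848 FPKM, with the companion TCONS_00281478 at 4.73 FPKM at E50, 3.53 FPKM at E60 and 3.68 FPKM at E70. TCONS_00136700 (scaffold 127, 703388 to 715980) was at 4253 FPKM, with the companion TCONS_00137468 at 9.92, 8.85 and 21.7 FPKM at E50, E60 and E70. At the latter 2 loci this companion was low at every stage, and the E60-only form stood far above it.

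The loci of 5 genes with a known symbol held E60-only transcripts. The symbols come from a list of 12 genes that the study paired with neighbouring long intergenic non-coding RNAs (lincRNAs) on the basis of these stages, so the list was not independent of the values. At the loci of these genes 7 of 33 transcripts (21.2%) were E60-only, with 28.4% among all transcripts. The 5 of 12 loci (41.7%) were close to the 43.4% among all loci. The share among all loci was 15.7% at those of 1 transcript and 64.9% at those of 2 or more. The 12 loci include both kinds and were not compared at equal numbers of transcripts. None of the 12 transcripts that the list itself gives for the genes was E60-only. Each of these was above 0 at every stage and is counted in the 33. They lower the share of 21.2%, so nothing is read from its difference to 28.4%.

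At AP2M1, which encodes a subunit of the clathrin adaptor of endocytosis, TCONS_00596742 (scaffold 331, 1657368 to 1666300) was at 301 FPKM, or 32.0% of the E60 sum of 5 forms. The main form at E70, TCONS_00597898, was at 803 FPKM at E50, 0 FPKM at E60 and 4795 FPKM at E70. The sum of the AP2M1 locus was 2017, 938 and 4947 FPKM at E50, E60 and E70, so the locus was lowest at E60 while a separate form was listed there alone. At COG4, which encodes a subunit of a tethering complex of the Golgi apparatus, TCONS_00702554 (scaffold 405, 10726540 to 10761703) was at 34.9 FPKM. It was the highest of 3 forms at E60, beside 28.9 for TCONS_00705778 and 30.7 for TCONS_00707552. The locus sum of COG4 went from 492 FPKM at E50 to 94.5 at E60 and 705 at E70, most of it from TCONS_00707552 at E50 and E70.

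NFE2L2, a transcription factor of the response to oxidative stress, and ADAT1, an enzyme that edits transfer RNA, each had a pair of E60-only forms at loci that were low at the other stages. At NFE2L2 (scaffold 66, 7162631 to 7199446) TCONS_00982766 was at 15.6 FPKM and TCONS_00977369 at 11.6. The locus sum was 0.674 FPKM at E50, 90.3 FPKM at E60 and 0.479 FPKM at E70, and TCONS_00982767, the form in the list, gave 40.7 FPKM of the E60 sum. At ADAT1 (scaffold 685, 378703 to 419012) TCONS_01005291 was at 17.1 FPKM and TCONS_01007546 at 7.25. The former was the highest form of ADAT1 at E60, with 44.9% of a locus sum that was 2.03, 38.1 and 1.69 FPKM at E50, E60 and E70. At both loci the companions were also higher at E60 than at the other stages in the deposited values. The companion TCONS_01007545 of ADAT1 was at 1.82, 4.23 and 1.35 FPKM at E50, E60 and E70. Its change from E50 was under 2-fold on the log2(FPKM + 1) scale.

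SAMD4B, which encodes a protein with an RNA-binding domain, had TCONS_01103377 (scaffold 834, 223508 to 249987) at 10.7 FPKM, or 36.4% of the E60 sum of its 4 forms. Its companion TCONS_01103689 was at 62.3 FPKM at E50, 0.383 FPKM at E60 and 65.0 FPKM at E70. As at COG4 and AP2M1, the locus sum was lowest at E60, at 29.5 FPKM against 63.5 at E50 and 69.0 at E70. The loci of ZDHHC18, TLCD2, RPN1, CNOT8, GGPS1, DTX3 and RBM5 held no E60-only transcript. A near case was TCONS_00350320 at TLCD2, which was at 4.73 FPKM at E60 and 0 at E50 but at 2.47e-06 at E70, and so failed the rule; it was chosen after its values were seen.

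Among the 12 lincRNAs of these pairs none was E60-only. Of their 12 loci, all of 2 or more transcripts, 7 (58.3%) held 9 E60-only transcripts, and 64.9% of all loci of that kind held one. The most abundant, named here after its values were seen, was TCONS_01007548 at 339 FPKM at the lincRNA locus beside ADAT1. That locus (scaffold 685, 421658 to 447914) summed to 3668, 500.02 and 4791 FPKM at E50, E60 and E70, while the listed lincRNA TCONS_01005398 was at 1501 FPKM at E50, 1.71 FPKM at E60 and 890 FPKM at E70. At this locus the E60-only form was 67.7% of the E60 sum.

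The longer list of 450 lincRNAs that the study selected for differences between these stages held no E60-only transcript. All 450 were above 0 at E60, 419 at E50 and 416 at E70, and 385 were above 0 at every stage. The selection by the study used the same values, so the 0 says nothing about lincRNAs in general. Of the 424 loci of these lincRNAs, 261 (61.6%) held E60-only transcripts, 503 in all with a median of 7.46 FPKM. Of those with 2 or more transcripts 66.4% held one, close to the 64.9% among all loci of 2 or more transcripts. The nearest neighbouring locus held an E60-only transcript for 184 of the 416 lincRNA loci with a neighbour (44.2%), and 43.4% of all loci held one.

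In all, 4 E60-only transcripts carried Gene Ontology terms in the first part of an annotation list of the study, the part read here. That part gives terms for 23 transcripts, and their gene symbols had been changed to dates, so no gene is named. TCONS_01146052 (scaffold 921, 1963482 to 1992652), with terms of DNA packaging, chromatin organization, protein folding and spermatid development, was at 75.7 FPKM. Its only companion, TCONS_01146630, was at 0.230, 574 and 0.369 FPKM at E50, E60 and E70, so that both forms were under 1 FPKM at E50 and E70. TCONS_00285330 (scaffold 185, 1143570 to 1276142), with terms of proteolysis and immune response, was at 7.00 FPKM, beside TCONS_00285984 at 16.6 FPKM at E50, 4.81 FPKM at E60 and 23.1 FPKM at E70. The highest form of that locus at E60 was the third, TCONS_00285858, at 0.0473, 14.5 and 0 FPKM at E50, E60 and E70.

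TCONS_01080064 (scaffold 796, 616008 to 697799), with terms of proteolysis and protein catabolism, was at 5.08 FPKM and shared its locus with the E60-only TCONS_01080063 at 2.99. The third form there, TCONS_01079665, was at 0.0739, 0.711 and 0.177 FPKM at E50, E60 and E70. TCONS_01131807 (scaffold 897, 1303910 to 1416689), with terms of zinc ion binding, was at 1.94 FPKM beside TCONS_01130940 at 0.792 FPKM at E50, 0.618 FPKM at E60 and 0 FPKM at E70. In the same part of the list, 164 of 643 transcripts without a symbol (25.5%) were E60-only, and 4 of the 23 with terms (17.4%), against 28.4% of all transcripts. The list is held only in part, so these counts describe the part read and no more.

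Along the genome the E60-only transcripts were widespread. They were found on 862 of 1290 scaffolds and contigs. On the 140 scaffolds with 100 or more transcripts, the share that was E60-only had a median of 28.2% and quartiles of 24.8% and 31.3%. The lowest was 18.9% on scaffold 932 (33 of 175 transcripts) and the highest 41.3% on scaffold 1339 (71 of 172). Scaffold 332 held the most, with 209 of its 728 transcripts (28.7%) at 131 of its 286 loci, a share near that of the whole table.

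Neighbouring loci showed little more than this. For 49.1% of the 12814 E60-only transcripts with another locus on their scaffold, the nearest one also held an E60-only transcript, and the share was 48.7% for other transcripts at 1 FPKM or more at E60 and 47.1% for all transcripts. At a minimum of 10 FPKM, which leaves fewer loci with one, these shares fell to 25.3%, 24.9% for others at 10 FPKM or more and 23.0% for all. The longest run of adjacent loci that each held an E60-only transcript counted 11 loci on scaffold 436 (4945527 to 5240048), with 26 E60-only transcripts among 46. The sixth locus of this run, from 5123838 to 5142613, held 8 of its 12 transcripts as E60-only, from 1.42 FPKM for TCONS_00753941 to 97.4 for TCONS_00755809. Its companion TCONS_00755395 was at 2423, 93.4 and 0 FPKM at E50, E60 and E70, and TCONS_00756900 was at 0 at E50, 2.37 at E60 and 1323 at E70. This locus thus had a separate leading form at each stage. Of the other 10 loci of the run, 3 were silent in full at E50 and E70 and 7 were not. Among the silent ones, from 4999638 to 5004682 all 4 forms were E60-only, with TCONS_00755804 highest at 10.97 FPKM, and from 5179635 to 5191683 all 3 were, with TCONS_00755724 highest at 30.2 FPKM.

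The largest numbers of E60-only transcripts at 1 locus were 9, on scaffold 1026 (351898 to 473677) and on scaffold 1634 (275693 to 477379). At the former, 9 of 18 transcripts were E60-only, from 1.16 FPKM for TCONS_00038274 to 25.9 for TCONS_00038245. The highest form of that locus at every stage was a companion, TCONS_00037972, at 34.6 FPKM at E50, 36.6 FPKM at E60 and 39.7 FPKM at E70. In the deposited values it stayed within this range while the sum of the locus was 41.1, 128 and 52.1 FPKM at E50, E60 and E70. These values are not scaled. The median over transcripts above 0 at all stages was 1.86, 6.82 and 1.46 FPKM at E50, E60 and E70, so median scaling would lower the E60 values relative to the others. At the latter, 9 of 21 transcripts were E60-only, from 1.80 FPKM for TCONS_00240646 to 17.3 for TCONS_00240648. The sum of that locus was 16.8 FPKM at E50, 187 FPKM at E60 and 13.7 FPKM at E70, and its highest form at E60 was TCONS_00240581 at 39.5 FPKM, a companion that was also above 0 at E50 (2.78) and E70 (2.03). In both loci the forms listed only at E60 stood beside companions that were above 0 at every stage.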

How the data were processed

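The authors aligned the reads with TopHat, assembled and quantified transcripts on the WZSP genome with Cufflinks, merged the assemblies and filtered the transcripts by exon number. The table that the authors deposited is Cuffdiff output, with FPKM as the unit at every stage. The submitters' notes name Cufflinks 1.0.3, while the study's methods give a later version. The table also holds the authors' fold changes, test statistics, p and q values, which were not used.

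Each transcript has 3 rows, 1 per comparison of stages, and the larger value was taken where the rows of a stage differed. This held for 426 E60-only transcripts (3.29%), which were listed at 0 in another row, where Cuffdiff marked low data. Starts were converted to count from 1. Changes were computed as log2(FPKM + 1), with 2-fold counted as changed. No test was made, and no replicate could be left out, with 1 value per stage.

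The transcripts and lists were chosen with earlier results of these data known. Named transcripts were the 10 highest by E60 FPKM, the 5 highest at single-transcript loci of at least 1000 bp, at silent loci of 2 or more transcripts, and at loci with a companion at 1 FPKM or more at E50 and E70, the 3 on either side of the minimum, the loci, scaffold and run with the most, and those with Gene Ontology terms or at the 12 paired genes. The shares of E60-only transcripts by the other transcripts of their locus have Wilson 95% confidence intervals, and other shares are printed without one. The alternatives were other minimums, smaller values where rows differ, median scaling, locus sums and another pseudocount. The steps were tested on simulated data and ran in Python 3.11.15 with numpy 2.4.6, pandas 2.3.3 and scipy 1.17.1.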

Additional observations from a re-analysis of the deposited data

How the results depend on the processing

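The number of E60-only transcripts stayed within 1.5 times of 12949 with the smaller value where rows differ, minimums of 0.5 and 2 FPKM or any value above 0 at E60, values under 0.1 FPKM in place of 0 at E50 and E70, and median scaling, over which it ran from 9903 to 16027. It fell to 7244 and 4734 at minimums of 5 and 10 FPKM, and 2649 loci met the rule by their summed FPKM. At the minimum of 10 FPKM, the median was 24.1 FPKM, the share with another transcript of the locus above 0 at E50 or E70 was 70.2%, the number at silent loci was 1413, the share with most of the E60 sum of the locus was 42.4%, the share whose nearest locus held one was 25.3% (23.0% over all transcripts) and the share at single-transcript loci was 11.1%. A higher minimum keeps fewer transcripts by construction.

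The share with another transcript of the locus above 0 at E50 or E70 was 54.3% when the other transcript had to reach 1 FPKM, 67.6% with 1 E60-only transcript per locus and 72.0% with values under 0.1 FPKM allowed at E50 and E70. The share with most of the E60 sum was 6.49% when it had to pass 90% of the sum and 65.1% at loci of exactly 2 transcripts. The share at single-transcript loci was 15.8% with 1 E60-only transcript per locus. Companions lower at E60 than at E50 were 18.9% at 4-fold, 25% with a pseudocount of 0.1 and 29.1% after median scaling. Median scaling, for the other shares chosen after seeing the data, gave 24.9% higher than at E50, and 25.2% higher and 32.0% lower than at E70. With it, chosen for these sums also after seeing the data, loci with another transcript above 0 at E50 or E70 were higher in sum at E60 than at E50 in 41.7% and lower in 37.8%, and against E70 in 41.9% and 41.5%, with 35.1% and 24.9% against E50 and 35.1% and 25.4% against E70 over all loci. Without the E60-only transcripts in the sum these were 25.4% and 45.8% against E50 and 26.0% and 48.7% against E70. The cause of these shifts was not tested. No paired analysis was possible because each stage has 1 value.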
